A study of Mus musculus with 8 samples.

Results

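The miR-183, miR-96 and miR-182 cluster was followed in small RNA libraries of mouse liver through its 3 abundant mature miRNAs, miR-183-5p, miR-96-5p and miR-182-5p. These are 3 of the 862 miRNA names that the 8 libraries list, chosen by name, and all 3 were present in all 8 libraries. They were chosen with their diet values in these libraries already known, so those values are given as a description, with no test. The libraries came from livers of male C57BL/6J wild-type mice, 8 weeks old at the start and housed singly, on caloric restriction (CR) or on food ad libitum (AL) for 12 weeks. The CR ration was cut by 20% for 1 week and then by 40% for 11 weeks. Mitochondria, isolated by differential centrifugation as mitoplasts (mitochondria stripped of their outer membrane), gave 3 CR and 3 AL libraries. Whole liver gave 1 CR and 1 AL library, each from 3 RNA samples pooled in equal amounts. The labels name no treatment beside the diet. Whether separate animals gave the mitochondrial libraries is not stated, so their spread may be technical. The series asked how restriction changes small RNAs in hepatic mitochondria.

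The 3 miRNAs are cut from neighbouring hairpins and are thought to be made from 1 long primary transcript. They are best known from sensory cells of the retina and the inner ear, where mutations in the seed of miR-96 cause hearing loss in mice and humans. In mouse liver the cluster is known as a target of SREBP transcription factors, which switch on the synthesis of cholesterol and fatty acids, and miR-96 and miR-182 act on regulators of SREBP in turn. miR-182 and miR-96 are also known, from human cells, to repress FOXO transcription factors.

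The mature sequences are shown because the 3 seeds (bases 2 to 8, in capitals, the part that pairs with targets) differ from each other by 1 or 2 bases. They are from RefSeq on GRCm38.p6 and equal those in the deposited files.
miR-183-5p: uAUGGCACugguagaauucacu
miR-96-5p: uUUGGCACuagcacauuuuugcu
miR-182-5p: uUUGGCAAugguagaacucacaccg

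No 2 of the 3 share a whole seed, and no other listed name shares bases 2 to 7 with any of them. miR-96-5p and miR-182-5p share bases 2 to 7 and differ within the seed by C8A, read from miR-96-5p to miR-182-5p and counted from 1 at the first base. miR-183-5p and miR-96-5p differ within the seed by A2U. Over their whole length miR-183-5p and miR-182-5p are the closest pair, with 18 of 22 positions the same and the substitutions A2U, C8A, U17C and U22A from miR-183-5p to miR-182-5p. miR-96-5p keeps 13 of 22 positions of miR-183-5p, and 12 of its 23 match miR-182-5p. All 3 hold the letters UGGCA within the first 8 bases, as do 7 of the 823 annotated names listed (0.851%). Each mature sequence was found in 1 hairpin only, both in RefSeq and in the GENCODE M21 transcripts.

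The hairpins are shown to place each mature arm (both arms in capitals) in its precursor.
miR-183 hairpin: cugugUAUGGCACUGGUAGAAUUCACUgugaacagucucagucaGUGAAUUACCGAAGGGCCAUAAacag
miR-96 hairpin: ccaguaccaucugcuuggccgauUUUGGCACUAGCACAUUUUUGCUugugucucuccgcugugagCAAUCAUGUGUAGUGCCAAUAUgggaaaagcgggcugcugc
miR-182 hairpin: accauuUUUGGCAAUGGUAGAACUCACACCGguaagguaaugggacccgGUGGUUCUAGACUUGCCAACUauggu

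On GRCm38 they lie on the minus strand of chromosome 6, miR-183 at chr6:30169668-30169737, miR-96 at chr6:30169446-30169551 and miR-182 at chr6:30165918-30165992. In the direction of transcription miR-183 comes first, miR-96 follows after 116 bases and miR-182 after another 3453. No other gene annotated in GENCODE M21 overlaps the 3820 bases of the cluster. The nearest is the long noncoding RNA gene Rncr4 on the plus strand, 3156 bases away, and the nearest protein-coding genes on either side are Nrf1 and Ube2h at 12460 and 41552 bases.

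The libraries held 1070762 to 1577691 miRNA reads in mitochondria and 3242002 and 2431564 in the CR and AL pools. Levels are RPM, reads of a miRNA scaled to 1000000 miRNA reads in each library. A single read was worth 0.634 to 0.934 RPM in mitochondria and 0.308 and 0.411 RPM in the CR and AL pools. Hepatocyte miRNAs led every library, and their 14 names (miR-122, miR-192 and others) summed to 617000 to 752400 RPM in CR mitochondria, 609000 to 666300 RPM in AL mitochondria, 590400 RPM in the CR pool and 499400 RPM in the AL pool. CR mitochondria replicate 2 stands apart. It held 100 reads of the pancreatic islet miRNA miR-375-3p and 52 of miR-217-5p of the exocrine pancreas, against 1 to 8 and 0 to 5 in the other 7 libraries. In tissue, fewer cells of a type and less RNA per cell cannot be told apart.

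miR-182-5p was the most abundant of the 3 miRNAs and miR-96-5p the least in every library. miR-183-5p stood at 71.6, 104 and 85.9 RPM in CR mitochondria, replicates 1 to 3, and at 35.1, 39.3 and 75.2 RPM in AL mitochondria. It stood at 163 RPM in the CR pool and 72.8 RPM in the AL pool. The CR and AL mitochondrial libraries overlap, since AL replicate 3 lies above CR replicate 1, and the CR pool is the highest of all 8 libraries.

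miR-96-5p stood at 24.1, 19.0 and 20.5 RPM in CR mitochondria and at 2.77, 7.31 and 9.84 RPM in AL mitochondria. It stood at 52.4 RPM in the CR pool and 17.7 RPM in the AL pool. Every CR mitochondrial library lies above every AL one, and above the AL pool as well. These levels rest on few reads, 29, 30 and 22 in CR and 3, 8 and 14 in AL mitochondria, against 170 in the CR and 43 in the AL pool. The exact 95% Poisson interval of the lowest CR library, replicate 2, is 12.8 to 27.2 RPM, and that of the highest AL library, replicate 3, is 5.38 to 16.5 RPM. These intervals cover counting error only, and they overlap.

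miR-182-5p stood at 162, 338 and 188 RPM in CR mitochondria and at 64.6, 163 and 169 RPM in AL mitochondria. It stood at 229 RPM in the CR pool and 226 RPM in the AL pool. CR replicate 2 is the highest of the 8 libraries and AL replicate 1 the lowest, the other 4 mitochondrial libraries lie close together, and the pools are nearly equal. The spread of the 3 miRNAs within a group was wide, with a coefficient of variation of 18.6%, 12.4% and 41.5% for miR-183-5p, miR-96-5p and miR-182-5p in CR mitochondria and of 44.3%, 54.0% and 44.3% in AL mitochondria (n = 3 each).

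**Figure D1:**
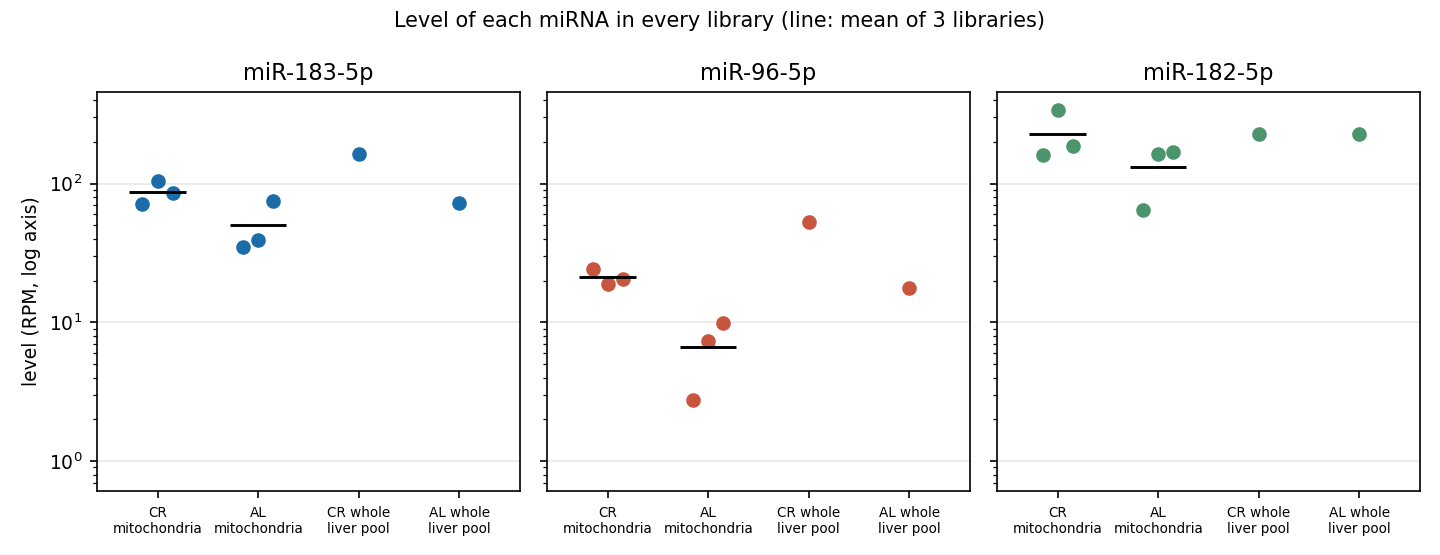
Level of miR-183-5p, miR-96-5p and miR-182-5p (RPM, log axis) in every library, by diet and fraction, with 1 point per library and a line at the mean where a group has 3. For miR-96-5p the CR mitochondrial points, 19.0 to 24.1 RPM, lie above the AL ones, 2.77 to 9.84 RPM, whereas the points of the other two overlap between the diets.

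The other arm of each hairpin was almost absent. Over all 8 libraries miR-183-3p had 1 read against 1236 of miR-183-5p, miR-96-3p 1 against 319 and miR-182-3p 2 against 2707. The minor arm thus took 0.0808% of the miR-183 reads (exact 95% Clopper-Pearson interval 0.00205% to 0.450%), 0.312% of the miR-96 reads (0.00791% to 1.73%) and 0.0738% of the miR-182 reads (0.00894% to 0.266%). Of the 111 hairpin names with both arms listed and at least 300 reads in all, the miR-182, miR-183 and miR-96 hairpins ranked 9, 10 and 31 by the share of the major arm, whose median was 98.1%. The minor arms were too rare for the tests.

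The reads of the 3 miRNAs were not divided in the same way in every library. miR-182-5p took 62.8%, 73.3% and 63.8% of them in CR mitochondria and 63.1%, 77.8% and 66.5% in AL mitochondria. In the CR pool it took 51.5% (95% interval 48.8% to 54.1%) and in the AL pool 71.4% (68.1% to 74.6%). The CR pool is the lowest of the 8 libraries, and the mitochondrial diets overlap. miR-96-5p made up 11.8% (10.2% to 13.6%) in the CR pool and 5.59% (4.08% to 7.46%) in the AL pool. In mitochondria its share was 6.83% ± 2.63 (SD, n = 3) under CR, at least 4.13%, and 3.35% ± 0.597 (SD, n = 3) under AL, at most 3.88%. For the nearest libraries, CR replicate 2 and AL replicate 3, the exact 95% intervals were 2.80% to 5.84% and 2.14% to 6.42%, which overlap. AL replicate 1 rests on 3 of 111 reads. This split is a description, as the diet values were known when the 3 were chosen. The share of miR-183-5p averaged 26.5% ± 3.51 in CR and 27.5% ± 7.98 in AL mitochondria (SD, n = 3 each), against 36.7% in the CR and 23.0% in the AL pool.

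The share of miR-182-5p was tested between the fractions. It averaged 67.9% ± 6.27 in mitochondria (SD, n = 6) and 61.4% in the pools (n = 2), 6.46 percentage points more in mitochondria. The exact permutation test, two-sided, gave p = 0.321, and 6 against 2 libraries cannot go below 0.0357. The difference was -3.51 points without the CR pool and 16.4 points without the AL pool, so its direction rests on which pool is used.

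**Figure D2:**
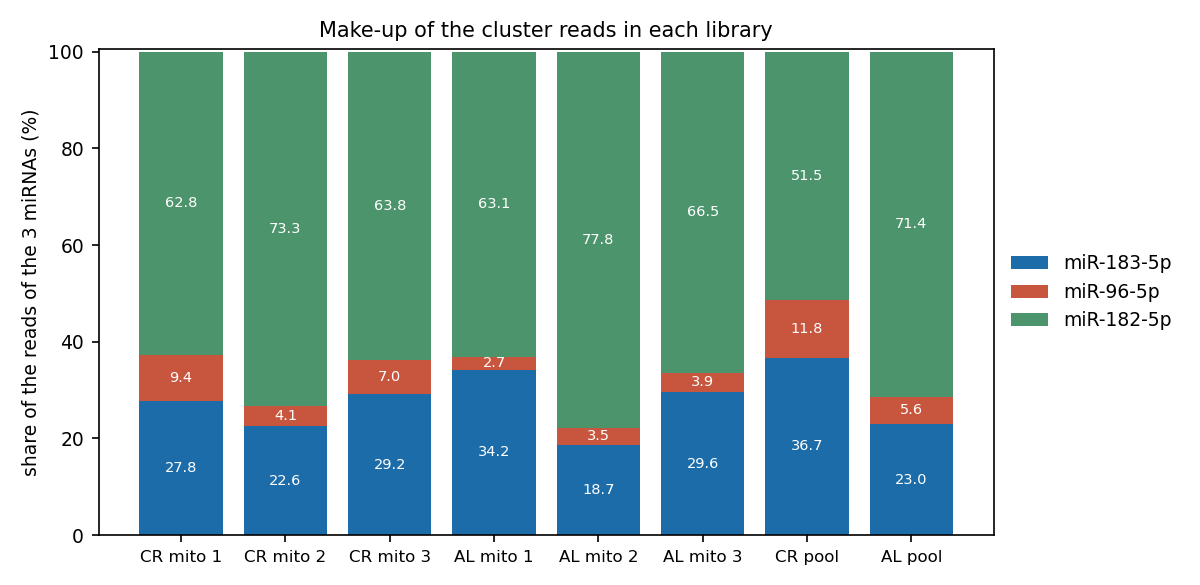
Share of miR-183-5p, miR-96-5p and miR-182-5p (%) among the reads of all 3, with 1 stacked bar per library (mito: mitochondria). miR-182-5p is the largest part of every bar and is smallest in the CR pool, at 51.5%.

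Mitochondria were set against whole liver in all 8 libraries with diet as a term, a comparison that did not enter the choice of the 3 miRNAs. miR-96-5p was lower in mitochondria. It averaged 13.9 ± 8.48 RPM in mitochondria (SD, n = 6) and 35.1 RPM in the pools (n = 2). By limma-trend on log2(RPM + 1) the log2 fold change was -1.35 (SE 0.45, adjusted p = 0.0301), which is 2.54-fold lower. Within each diet all 3 mitochondrial libraries lay below the pool of that diet, at 19.0 to 24.1 RPM against 52.4 RPM under CR and at 2.77 to 9.84 RPM against 17.7 RPM under AL.

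Neither miR-183-5p nor miR-182-5p passed in this comparison. miR-183-5p averaged 68.5 ± 26.8 RPM in mitochondria (SD, n = 6) and 118 RPM in the pools (n = 2), with a log2 fold change of -0.77 (SE 0.37, 95% interval -1.54 to 0.00, adjusted p = 0.122 by limma). miR-182-5p averaged 181 ± 88.3 RPM in mitochondria (SD, n = 6) and 227 RPM in the pools (n = 2), with -0.48 (SE 0.41, 95% interval -1.33 to 0.37, adjusted p = 0.380 by limma). Their intervals include no change and, for miR-183-5p, also a drop as large as that of miR-96-5p. Under CR the 3 mitochondrial libraries of miR-183-5p lay below the pool, and under AL replicate 3 lay above it. For miR-182-5p the CR libraries lay on both sides of the CR pool, while all 3 AL libraries lay below the AL pool.

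Thus 1 of the 3 miRNAs was called lower, where 21.6% of the 417 miRNAs tested were called lower in mitochondria, and 0 of the 3 had all 6 mitochondrial libraries below both pools, as 27.1% of all tested did. Since each diet has 1 pool, the fit takes the spread of the pools to be that of the mitochondrial libraries. The call of miR-96-5p was lost under other scales. The median log2 fold change of all miRNAs tested was -0.31 on the deposited scale. It was -0.10 with TMM factors, where miR-96-5p had -1.05 (adjusted p = 0.0912 by limma), and -0.02 with both arms of miR-122 left out of the total, where it had -0.98 (adjusted p = 0.155 by limma). Without the CR pool its adjusted p by limma was 0.181 and without the AL pool 0.259, with log2 fold changes of -1.42 and -1.27.

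Diet was the question of the series, and its values led to the choice of these miRNAs. In mitochondria all 3 stood higher under CR on average. miR-96-5p averaged 21.2 ± 2.64 RPM under CR and 6.64 ± 3.58 RPM under AL (SD, n = 3 each), a fitted log2 difference of 1.67 (SE 0.49). miR-183-5p averaged 87.2 ± 16.2 RPM under CR and 49.9 ± 22.1 RPM under AL (SD, n = 3 each), a log2 difference of 0.86 (SE 0.39). miR-182-5p averaged 229 ± 95.1 RPM under CR and 132 ± 58.7 RPM under AL (SD, n = 3 each), a log2 difference of 0.83 (SE 0.41). The summed level of the 3 was 257, 461 and 294 RPM in CR mitochondria and 102, 210 and 254 RPM in AL mitochondria, so that all CR libraries lie above all AL libraries, by little at the boundary.

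For 1 of the 3, miR-96-5p, all CR libraries stood above all AL libraries, as they did for 5.04% of the 417 miRNAs tested. Since the 3 were chosen with these values known, nothing is read from that count. The median log2 difference of all miRNAs tested was -0.17, so relative to it the 3 stood at 1.84 (miR-96-5p), 1.03 (miR-183-5p) and 1.01 (miR-182-5p). Without CR replicate 2, the library with pancreas miRNAs, the log2 differences were 1.74, 0.73 and 0.52 for miR-96-5p, miR-183-5p and miR-182-5p. Without AL replicate 1 they were 1.22, 0.65 and 0.39. The value of miR-182-5p thus rests in good part on those 2 libraries.

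In the whole-liver pools, which are 2 libraries with no replicate check, the 3 miRNAs had unequal ratios. The intervals given cover counting error only. The CR to AL ratio was 2.97 for miR-96-5p (exact 95% Clopper-Pearson interval 2.11 to 4.25, 170 and 43 reads) and 2.24 for miR-183-5p (1.89 to 2.67, 529 and 177 reads). It was 1.01 for miR-182-5p (0.905 to 1.13, 741 and 549 reads). How far other pools of the same diets would differ cannot be told from these. Of the 3, 2 were at least 2-fold higher in the CR pool with 1 RPM added, as were 4.12% of the 243 miRNAs that reached 10 RPM in either pool, and here too nothing is read from the count. The median log2 ratio of the 243 was -0.22. With TMM factors the ratios were 3.67, 2.77 and 1.25, in the same order of miRNAs.

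The diet difference of miR-182-5p was 0.83 on the log2 scale in mitochondria and 0.02 in the pools. In the fit with an interaction of diet and fraction, its mitochondrial minus whole-liver diet difference was 0.82 (SE 0.82), against 0.15 (SE 0.96) for miR-96-5p and -0.29 (SE 0.77) for miR-183-5p. Each estimate is smaller than its standard error. With 1 pool per diet this fit is imprecise. In simulated data it recovered 6.25% of changes of 2 on the log2 scale among miRNAs at 10 RPM or more, so these estimates do not show that the diet differences were alike in both fractions.

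**Figure D3:**
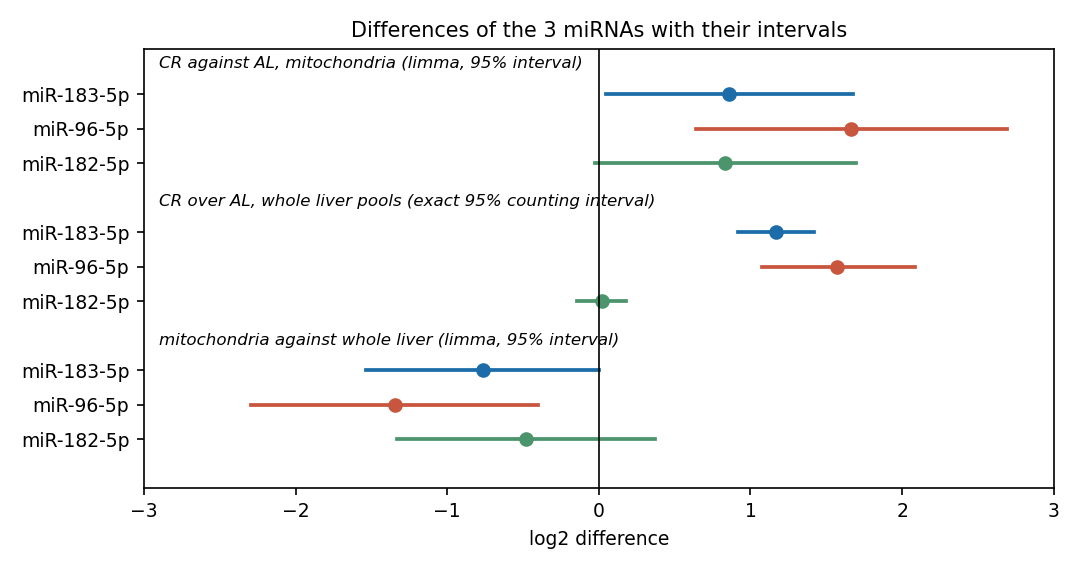
Log2 differences of miR-183-5p, miR-96-5p and miR-182-5p with 95% intervals, for diet and fraction. The diet comparisons are CR against AL in mitochondria (6 libraries) and CR over AL in the whole-liver pools (2 libraries, counting error only). The fraction comparison is mitochondria against whole liver (8 libraries). The miRNAs were chosen with their diet values known, so the diet intervals are a description and no test. In the pools miR-182-5p lies at 0.02, apart from miR-183-5p at 1.17 and miR-96-5p at 1.57, whereas in mitochondria miR-182-5p lies at 0.83 beside miR-183-5p at 0.86.

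**Figure D4:**
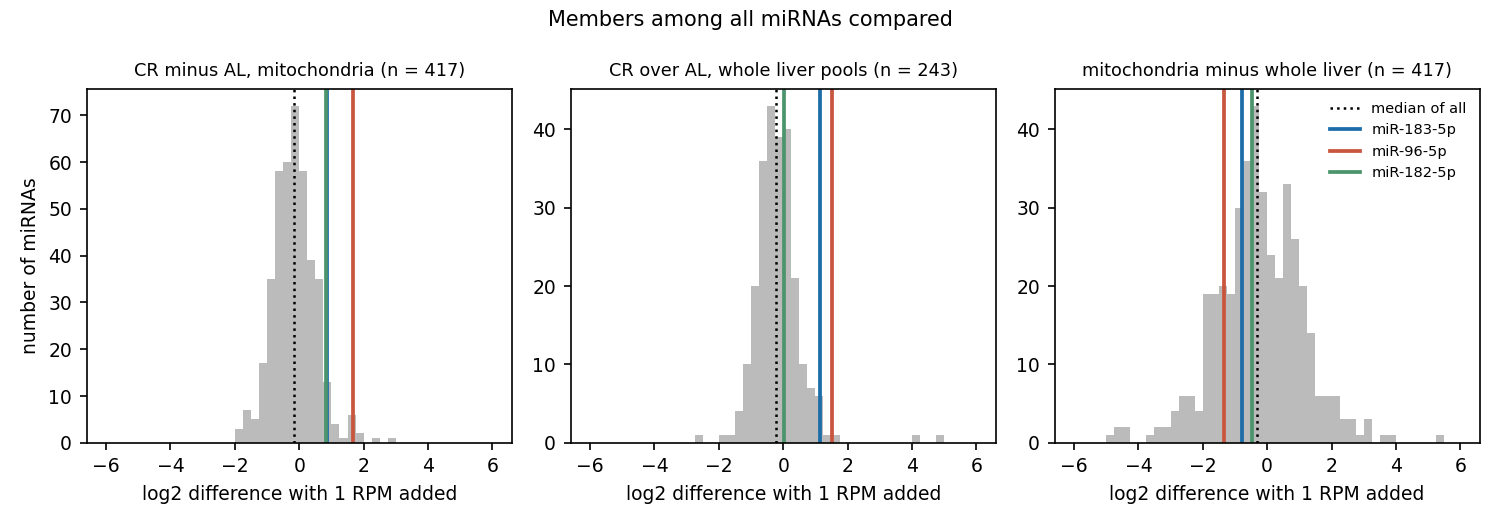
Number of miRNAs by log2 difference with 1 RPM added, for CR minus AL in mitochondria (417 miRNAs), CR over AL in the whole-liver pools (243) and mitochondria minus whole liver (417), with colored lines at the 3 cluster members and a dotted line at the median of all. The members lie to the right of the median in both diet panels and to its left in the fraction panel, where the median is -0.31.

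Other epithelial and neuroendocrine miRNAs were set beside the cluster, since epithelial, islet and sensory cells are known to carry it. Of the miR-200 family, which keeps cells epithelial, 0 of 7 tested members passed by limma with the diet in mitochondria, as 0.480% of all tested did. All 7 had a log2 difference above 0, and their median was 0.38, against -0.17 over all tested. CR replicate 2 was the highest mitochondrial library for each of the 7 except miR-429-3p. For miR-200c-3p it stood at 33.6 RPM, against 4.996 and 4.67 RPM in the other CR libraries and 7.03 to 8.31 RPM in AL mitochondria. For miR-200a-5p every CR mitochondrial library lay above every AL one, as for 5.04% of the 417 miRNAs tested. It rests on 3, 10 and 2 reads in CR and 0, 1 and 1 in AL mitochondria. The family's difference without CR replicate 2 was not tested. The family's summed level, over the 8 names listed, was 290 to 510 RPM in CR mitochondria, highest in replicate 2. It was 242 to 427 RPM in AL mitochondria, and 791 and 769 RPM in the CR and AL pools. Against whole liver 2 of the 7 fell in mitochondria by limma, where 21.6% of all tested did. They were miR-200b-3p with a log2 fold change of -2.79 (adjusted p = 3.47e-05) and miR-200a-3p with -0.91 (adjusted p = 0.0442). The family's median was -0.91, against -0.31 over all tested. In the pools 1 of its 4 members with at least 10 RPM was at least 2-fold higher under CR with 1 RPM added. So were 4.12% of the 243 miRNAs compared there. It was miR-429-3p, at 25.6 RPM in the CR and 11.1 RPM in the AL pool. The CR to AL ratio was 1.22 for miR-200a-3p, 0.67 for miR-200b-3p and 0.57 for miR-200c-3p. The median log2 ratio of the 4 was -0.15, against -0.22 over the 243.

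Of the other epithelial and bile duct miRNAs 0 of 5 tested passed with the diet in mitochondria, as 0.480% of all tested did. The median of the 5 was -0.17, against -0.17 over all tested, and 2 were above 0. For miR-31-3p every CR mitochondrial library, at 25.2 to 38.0 RPM, lay above every AL one, at 7.03 to 11.1 RPM. Such a split was seen for 5.04% of the 417 miRNAs tested. The list summed to 586 to 1129 RPM in CR mitochondria and 845 to 1383 RPM in AL mitochondria. In the CR and AL pools it summed to 2022 and 2900 RPM, and most of it was the skin and epithelial miRNA miR-203-3p. Against whole liver 1 of the 5 rose in mitochondria, as 10.6% of all tested did, miR-31-3p (log2 fold change 1.17, adjusted p = 0.0433 by limma). Another fell, miR-203-3p (-1.56, adjusted p = 0.00190 by limma), as 21.6% of all tested did. The more abundant arm of the miR-31 hairpin, miR-31-5p, leaned the other way from miR-31-3p and did not pass (-0.98, adjusted p = 0.0583 by limma).

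The pancreas list summed to 2.50, 98.9 and 4.67 RPM in CR mitochondria, replicates 1 to 3, to 2.11 to 5.48 RPM in AL mitochondria, and to 2.47 and 6.99 RPM in the CR and AL pools. The high value is CR replicate 2. Of the 3 CR mitochondrial libraries, it was the highest in miR-182-5p (338 RPM) and miR-183-5p (104 RPM) and the lowest in miR-96-5p (19.0 RPM). Neither of the 2 tested names of the pancreas list passed with the diet in mitochondria, as 0.480% of all tested did. Nor did either pass between the fractions, where 10.6% of all tested rose and 21.6% fell. The part of pancreatic or other epithelial cells in the levels of the cluster was not tested. Of the neuronal and sensory list 0 of 5 tested names passed with the diet in mitochondria, as 0.480% of all tested did. Their median was -0.56, against -0.17 over all tested. Against whole liver 0 of the 5 passed, where 10.6% of all tested rose and 21.6% fell. Their median there was -0.04, against -0.31 over all tested. The list summed to 33.0 to 45.8 RPM in CR and 33.2 to 43.8 RPM in AL mitochondria, and to 27.1 and 25.1 RPM in the CR and AL pools.

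Other cell type lists gave these sums. Leukocyte names summed to 2962 to 4842 RPM in CR and 8035 to 11010 RPM in AL mitochondria, against 714 and 1033 RPM in the CR and AL pools. Most of this was miR-146a-5p, at 2763 to 4626 RPM in CR mitochondria, 7609 to 10740 RPM in AL mitochondria and 390 and 630 RPM in the CR and AL pools. The 8 leukocyte names other than the miR-146a arms summed to 199 to 264 RPM in CR and 274 to 422 RPM in AL mitochondria, and to 324 and 403 RPM in the CR and AL pools. Stellate cell and fibroblast names summed to 25660 to 44660 RPM in CR and 35620 to 47450 RPM in AL mitochondria, and to 15880 and 14710 RPM in the CR and AL pools. Most of this was miR-143-3p, at 24370 to 43460 RPM in CR and 32530 to 44650 RPM in AL mitochondria. It stood at 13100 and 11710 RPM in the CR and AL pools. Against whole liver it was the 1 name of 9 that rose by limma, while 3 fell, where 10.6% and 21.6% of all tested did. The median of the 9 was -0.16, against -0.31 over all tested. Endothelial names summed to 6707 to 18070 RPM in CR mitochondria, highest in replicate 2, to 6694 to 9437 RPM in AL mitochondria, and to 14980 and 19610 RPM in the CR and AL pools. Erythroid names summed to 63.5 to 116 RPM in CR and 69.6 to 125 RPM in AL mitochondria, and to 91.6 and 63.7 RPM in the CR and AL pools. The stellate, endothelial and erythroid sums overlap between the diets in mitochondria, and no difference between these sums was tested. Of the 9 stellate names 1 passed with the diet in mitochondria, as 0.480% of all tested did. It was miR-199a-3p, at 543.5 to 689 RPM in CR and 1532 to 2234 RPM in AL mitochondria (log2 difference -1.64, adjusted p = 0.012 by limma). Of the 14 hepatocyte names 1 passed, miR-802-5p, higher under CR (log2 difference 2.97, adjusted p = 0.0042 by limma). The part of these cell types in the diet values of the cluster was not tested.

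Of the miRNAs that act on cholesterol and lipid handling in liver, 0 of 18 tested passed with the diet in mitochondria, as 0.480% of all tested did. Of the 18, 6 were above 0, and their median was -0.29, against -0.17 over all tested. miR-33-5p lies in an intron of Srebf2, the gene of SREBP-2, and represses the cholesterol exporter Abca1. It stood at 14.99, 5.71 and 8.41 RPM in CR and 7.39, 7.31 and 4.22 RPM in AL mitochondria, which overlap. In the pools it was at 18.8 RPM under CR and 7.81 RPM under AL (61 and 19 reads), a ratio of 2.41. Of the 13 listed names with at least 10 RPM in either pool, 1 was at least 2-fold higher under CR with 1 RPM added, miR-33-5p. Over all 243 miRNAs compared there, 4.12% were. miR-33-5p passed the filter of 10 RPM only through the CR pool, where it was higher, so nothing is read from this count. The other arm, miR-33-3p, stood at 0, 1.90 and 0 RPM in CR and 2.77, 2.74 and 0.703 RPM in AL mitochondria. Its pool ratio was 1.07 (10 and 7 reads). Against whole liver 6 of the 18 fell in mitochondria by limma and 0 rose, where 21.6% of all tested fell and 10.6% rose. Their median was -0.79, against -0.31 over all tested. Among those that fell were miR-30c-2-3p with a log2 fold change of -2.88 (adjusted p = 5.12e-06) and miR-27b-3p with -1.96 (adjusted p = 0.000153), while miR-33-5p had -0.64 (adjusted p = 0.316).

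The miRNAs whose pattern over the 8 libraries was most like each member were found by the root mean square difference of log2(RPM + 1), after each miRNA was centred on its own mean. The measure is smaller for miRNAs that vary little. It also draws on the diet values that were known when the 3 were chosen. The members' ranks beside each other are therefore a description, with no test. For miR-96-5p the nearest of 416 was miR-183-5p, with a root mean square difference of 0.55, and miR-182-5p ranked 4 with 0.74, against a median of 1.31 over all. In between stood miR-200a-5p of the miR-200 family (0.59) and miR-744-3p (0.70), both at under 7 RPM in every library, and miR-212-5p (0.74) followed.

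For miR-183-5p the nearest was miR-148a-3p (0.43), an abundant hepatocyte miRNA known to repress the LDL receptor, and miR-182-5p ranked 3 (0.46) and miR-96-5p 11 (0.55), against a median of 0.96. The other near ones were miR-5121 (0.45), miR-877-5p (0.49) and miR-26a-5p (0.50). For miR-182-5p the nearest was miR-26b-3p (0.29), followed by miR-700-5p, miR-1843b-3p, miR-185-3p and miR-201-5p (0.38 to 0.43). Several of these names rest on few reads, with at most 2.06 RPM of miR-877-5p, 3.17 RPM of miR-185-3p, 2.78 RPM of miR-201-5p and 4.94 RPM of miR-700-5p in any library. In the order for miR-182-5p, miR-183-5p ranked 7 (0.46) and miR-96-5p 78 (0.74), against a median of 0.96. By this measure miR-183-5p lay nearer to miR-182-5p (0.46) than to miR-96-5p (0.55), whose hairpin is adjacent. Distances from miR-96-5p were larger in general, with a median of 1.31 against 0.96 for the others. The measure therefore does not show which pair is closest in pattern.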

How the data were processed

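Small RNA reads of mouse liver were aligned with Bowtie (version not stated) against the mm9 build, per the submitters' processing notes. The counting rules are not given in the sources used here. The values deposited by the authors are RPM (headed tpm), and each library sums to 1000000 over the listed miRNAs, with no scaling for length. All values (100%, within 0.01 read) were whole multiples of the library's smallest, taken as 1 read, so reads were recovered by division. A name not listed in a library was set to 0. A level of 0 allows up to 3 reads, 1.90 to 2.80 RPM in mitochondria and 0.925 and 1.23 RPM in the CR and AL pools.

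Members, lists, tests and alternatives were chosen with earlier results of these data known. Named miRNAs are the members, their other arms, list members and the 5 nearest in pattern per member. List members were named for the size of their values, and those that passed. limma-trend (limma 3.58.1, R 4.3.3) ran on log2(RPM + 1) for the 417 miRNAs that reached 1 RPM in 3 or more of the 8 libraries. Benjamini-Hochberg adjustment ran over all of them, and the threshold was 0.05. It was tested on simulated data. edgeR 4.0.16 on the recovered reads called 10 miRNAs with the diet in mitochondria and 167 between the fractions. DESeq2 1.42.0 was also run. Exact intervals and the permutation test used scipy 1.17.1, with plots by matplotlib 3.10.9 (Python 3.11.15). Sequences and positions are RefSeq's and GENCODE's on GRCm38, not from the authors' mm9 alignment.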

Additional observations from a re-analysis of the deposited data

How the results depend on the processing

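With the diet in mitochondria, the 2 calls among all miRNAs became 5 with TMM factors, 5 with DESeq2 size factors, 4 without miR-122 in the total, 10 without a filter, 4 with a filter of 10 RPM, 10 in edgeR and 9 in DESeq2, and 0 to 5 when 1 library was left out. The members' diet differences in mitochondria kept their sign throughout, at 1.22 to 1.98 for miR-96-5p, 0.65 to 1.19 for miR-183-5p and 0.39 to 1.17 for miR-182-5p. With a replicate block there were 5 calls. Same-numbered libraries had deviations that correlated at 0.356, 0.0862 and 0.103, against -0.276 to 0.199 for libraries of different numbers. These few values do not settle whether the numbers mark pairs, and they were not taken as pairs.

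Against whole liver, miR-96-5p was called in 9 of 17 alternatives (adjusted p by limma, edgeR or DESeq2 0.0206 to 0.259) and was below 0 in all 17. Its log2 fold change without the call was -1.05 with TMM factors, -1.04 with DESeq2 size factors, -0.98 without miR-122 in the total, -1.35 without a filter (adjusted p = 0.0570), -0.88 in edgeR and -1.01 in DESeq2. With 1 library left out it lay between -1.49 and -1.13, and the call was lost without either pool. miR-183-5p and miR-182-5p passed in none of the 17, and miR-182-5p was at 0.0137 in edgeR. All calls numbered 134, of which 44 higher and 90 lower. With 1 library left out they numbered 58 to 140, with 58 without the CR pool and 65 without the AL pool. The split was 59 higher and 72 lower with TMM factors, 62 and 72 with DESeq2 size factors, 65 and 63 without miR-122, 97 and 70 in edgeR, and 78 and 71 in DESeq2.

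The interaction gave 0 calls by limma, edgeR or DESeq2 (5, 18 and 8 at an unadjusted p under 0.05), and 129 by limma without a filter. Its estimate turned to -0.12 for miR-96-5p with 5 RPM added. With 1 library left out it lay between -0.29 and 0.47 for miR-96-5p, between -0.50 and 0.0398 for miR-183-5p and between 0.37 and 1.05 for miR-182-5p (0.37 without AL replicate 1 and 0.50 without CR replicate 2). In the pools TMM factors gave a ratio of 2.77 for miR-183-5p and 1.25 for miR-182-5p, and DESeq2 size factors gave 1.13 for miR-182-5p. The share of miR-182-5p in mitochondria minus pools lay between -3.51 and 16.4 points with 1 library left out. The causes were not tested. miR-96-5p had 3 to 14 reads per library in AL mitochondria, and whole liver had 1 pool per diet.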
